A study of Mus musculus with 42 samples.

Results

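SMARCA2/4 occupancy was compared between euploid and Ts65Dn;Brwd1+/- hippocampus through the deposited peak lists, 1 per genotype. Peaks of either list on a placed chromosome (1 to 19, X and Y) were taken, and a peak was called shared when it overlapped a peak of the other list by 1 bp or more. That gave 24274 peaks, 22612 in the euploid and 1662 in the Ts65Dn;Brwd1+/- list, out of 25830 SMARCA2/4 peaks on all sequences in the 3 genotypes of the series. Each list rested on chromatin immunoprecipitation (IP) and sequencing of unsorted hippocampal tissue from male mice aged 6 to 8 weeks. Each genotype had 4 IP libraries with 4 inputs. Every library pooled tissue from 2 animals.

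Euploid animals carried the normal chromosome number. Ts65Dn;Brwd1+/- animals carried the Ts65Dn extra chromosome, made of distal chromosome 16 and proximal chromosome 17, together with 1 mutant copy of Brwd1 (the repro5 allele), so that of all triplicated genes Brwd1 alone was returned to a normal number of working copies. Ts65Dn animals, whose list is given for context, carried the extra chromosome and no mutant copy of Brwd1. All came from crosses of Ts65Dn females with Brwd1 heterozygous males on a mixed background (DBA/2J x B6EiC3Sn/J). The Ts65Dn chromosome also triplicates chromosome 17 genes that have no counterpart on human chromosome 21. The replicates of a genotype were pooled before deposit, so no difference between the lists has a replicate error, no test between the genotypes was possible, and the intervals below (Wilson, 95%) cover counting error only. Which part of a difference in the number of peaks belongs to binding and which to the depth or quality of the libraries cannot be told apart, since depth is unknown from the lists. In whole tissue, fewer cells of a type and less binding per cell cannot be told apart either.

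SMARCA2 (BRM) and SMARCA4 (BRG1) are the alternative ATPases of the BAF (SWI/SNF) complex, which uses ATP to slide and evict nucleosomes at promoters and enhancers. In neurons the complex takes up dedicated subunits, among them SS18L1 (CREST), ACTL6B (BAF53b) and DPF1 or DPF3. BRWD1 is a reader of acetylated histones, with bromodomains and WD40 repeats, encoded in the segment that Ts65Dn mice carry in triplicate. The comparison asks how far the places of BAF binding in trisomic hippocampus with a normal number of Brwd1 copies coincide with those in euploid hippocampus.

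The sites that the lists had in common, and those that they did not, came in a few distinct kinds, and short sequences of some are given here (mm10, 5′ to 3′). The gene with the most peaks of high fold enrichment was Ss18l1, which encodes the neuronal BAF subunit CREST. Its peaks sat on exons, and that on exon 7 (chr2:180058054-180058220) of transcript ENSMUST00000041126 in the Ts65Dn;Brwd1+/- list is shown on the plus strand, the strand of the gene, with the exon in capitals.
Ss18l1 exon 7: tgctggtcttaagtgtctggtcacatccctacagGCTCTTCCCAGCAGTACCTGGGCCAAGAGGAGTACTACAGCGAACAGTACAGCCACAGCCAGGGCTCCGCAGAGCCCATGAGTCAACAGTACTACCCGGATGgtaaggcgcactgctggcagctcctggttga
A peak at exon 10 of Brwd1 itself (chr16:96059485-96059652, minus strand, the strand of the gene, exon of ENSMUST00000232755 in capitals) was the strongest peak of the whole euploid list and was also present in Ts65Dn;Brwd1+/-. It lies within the stretch that the study's repro5 genotyping primers amplify, so it need not be a binding site.
Brwd1 exon 10: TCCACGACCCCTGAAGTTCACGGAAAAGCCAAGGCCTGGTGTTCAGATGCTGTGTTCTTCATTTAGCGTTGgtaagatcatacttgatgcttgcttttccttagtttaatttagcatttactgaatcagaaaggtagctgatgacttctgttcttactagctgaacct
Shared promoter sites are represented by those named below that lay outside repeats and held no exon base: Camk2b, a subunit of the calcium/calmodulin kinase of synapses (chr11:6000487-6000629, minus strand), Map7, a microtubule-associated protein (chr10:20170533-20170605, plus strand), and Trim32, a ubiquitin ligase (chr4:65605168-65605217, plus strand). Capitals mark the bases of the Ts65Dn;Brwd1+/- peak that the euploid peak also covered, which were 143 of 143, 20 of 73 and 32 of 50.
Camk2b promoter: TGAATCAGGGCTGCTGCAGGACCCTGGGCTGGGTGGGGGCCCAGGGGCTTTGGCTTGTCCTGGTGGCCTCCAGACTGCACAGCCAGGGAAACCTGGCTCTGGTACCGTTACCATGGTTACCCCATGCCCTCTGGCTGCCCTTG
Map7 promoter: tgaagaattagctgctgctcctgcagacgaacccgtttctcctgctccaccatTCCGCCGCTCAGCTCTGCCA
Trim32 promoter: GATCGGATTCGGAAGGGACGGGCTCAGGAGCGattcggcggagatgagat
The site with the highest fold enrichment in Ts65Dn;Brwd1+/- lay between genes in a repeat (chr6:105120278-105120344, plus strand), and the euploid peak covered all 67 bases.
strongest site: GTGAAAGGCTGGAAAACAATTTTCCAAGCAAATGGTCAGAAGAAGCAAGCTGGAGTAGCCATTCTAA
Sites found in Ts65Dn;Brwd1+/- only are represented by a peak in the repeat array at the start of chromosome 9, annotated to the predicted gene Gm10717 (chr9:3024763-3024814), and by peaks within Cpne4, a copine (chr9:104701826-104701882), and within 1 kb of a start of Dst, the cytoskeletal linker dystonin (chr1:34006456-34006512), all on the plus strand. The Cpne4 peak, though absent from the euploid list, was also in the Ts65Dn list.
Gm10717 site: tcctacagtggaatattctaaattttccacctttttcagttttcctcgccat
Cpne4 site: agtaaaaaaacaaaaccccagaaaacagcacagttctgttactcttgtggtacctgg
Dst site: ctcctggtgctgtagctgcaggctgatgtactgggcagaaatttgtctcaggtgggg

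Many Ts65Dn;Brwd1+/- peaks were found at euploid sites, whereas few euploid peaks were found in Ts65Dn;Brwd1+/-. Of 1662 Ts65Dn;Brwd1+/- peaks, 818 overlapped a euploid peak (49.2%, 46.8 to 51.6%). The count on the euploid side was also 818, out of 22612 peaks (3.62%, 3.38 to 3.87%). Merged, the lists held 23427 sites, of which 789 were in both, 21794 in euploid only and 844 in Ts65Dn;Brwd1+/- only. As context, euploid peaks covered 0.0979% of the placed genome and Ts65Dn;Brwd1+/- peaks 0.00505%.

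Shared peaks were chosen by overlap, so their centres had to be close. The median distance between their centres was 42.8 bp. The Ts65Dn;Brwd1+/- peak had a median width of 75 bp, against 160.5 bp for its euploid partner. A median of 97.9% of its bases lay inside the euploid peak, and 389 of the 818 peaks (47.6%) lay wholly inside. The 844 peaks of Ts65Dn;Brwd1+/- without an overlap were often beside a euploid peak. Their median distance, centre to centre, to the nearest euploid peak was 701.5 bp, and 454 of them (53.8%, 50.4 to 57.1%) were within 1000 bp of one, against 310 of 26461 windows of 300 bp placed every 100000 bp along the genome (1.17%). The share was 73.3% for those within 1 kb of a transcription start and 46.5% (172 of 370) for those elsewhere that were not mostly repeat sequence. With a gap of up to 1000 bp allowed between the peaks, 76.7% of Ts65Dn;Brwd1+/- and 10.0% of euploid peaks had a partner.

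Whether a euploid site was seen in Ts65Dn;Brwd1+/- went with its rank. In the first decile of the euploid list by q-value (the false discovery rate that the peak caller gives each peak) 328 of 2262 peaks (14.5%, 13.1 to 16.01%) were shared, in the second 89 of 2262 (3.93%), and in the last 35 of 2261 (1.55%). Width went the same way, with 188 of 774 euploid peaks wider than 300 bp shared (24.3%) against 148 of 7256 of at most 75 bp (2.04%). A wider peak is more easily overlapped by 1 bp, and median width was 155 bp in the first decile and 85 bp in the last. The part of width in the gradient by rank was not tested. Without repeat-masked peaks, 11.6% of the first decile and 1.52% of the last were shared. From the Ts65Dn;Brwd1+/- side the gradient was shallow, 55.7% in the first decile and 43.4% in the last. Of its peaks with a q-value under 0.05, 497 of 920 were shared (54.0%), and of the remainder 321 of 742 (43.3%).

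**Figure D1:**
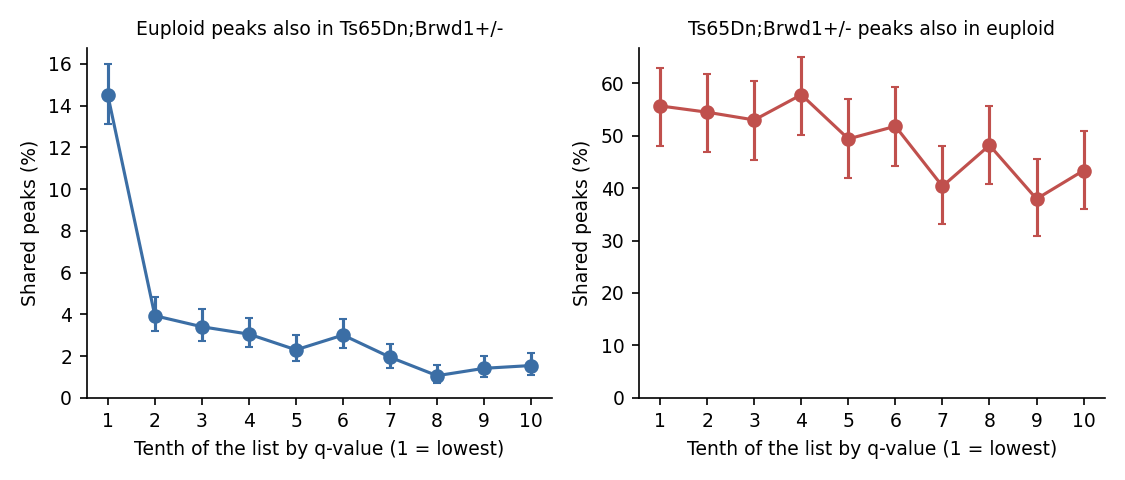
Share of peaks (%) found in the other list, by decile of the list ranked by q-value, for euploid (left) and Ts65Dn;Brwd1+/- (right) peaks, with Wilson 95% intervals. The euploid share drops from 14.5 to 3.93% between the first and second decile, while the Ts65Dn;Brwd1+/- share moves between 38.0 and 57.8%.

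With equal numbers of top peaks, the shared share fell for Ts65Dn;Brwd1+/- (49.2% with the whole lists) and rose for euploid (3.62%). The fall was fixed beforehand, since the same Ts65Dn;Brwd1+/- peaks were set against only a part of the euploid list. Against the 1662 euploid peaks with the lowest q-values, 305 of the 1662 Ts65Dn;Brwd1+/- peaks were shared (18.4%, 16.6 to 20.3%), and 288 of those euploid peaks were (17.3%). Ranked by fold enrichment instead (the ratio of IP signal over local background), 256 were shared (15.4%). Towards the top the share rose, to 21.4% for the 500 lowest q-values of each list, 30.5% for 200 and 41.0% for 100. That rise rested largely on repeat sites and on Ss18l1. Without peaks over 50% of whose bases are repeat-masked in the reference, and without those annotated to Ss18l1 or Brwd1, 16 of the 100, 27 of the 200 and 75 of the 500 lowest q-values were shared.

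The median fold enrichment differed little between shared and list-specific peaks, whereas high values were more frequent among the shared. It was over 6-fold at 76 of 818 shared and 64 of 21794 euploid-only peaks of the euploid list, and at 72 of 818 shared and 34 of 844 list-specific peaks of Ts65Dn;Brwd1+/-. It had a median of 4.02 (95% interval of the median, 3.94 to 4.17) at shared and 3.73 (3.73 to 3.75) at euploid-only peaks of the euploid list, and 3.90 (3.90 to 3.95) at shared and 3.78 (3.67 to 3.88) at list-specific peaks of Ts65Dn;Brwd1+/-. Each fold enrichment is relative to its own list's background. At the 818 shared Ts65Dn;Brwd1+/- peaks, the value was higher than that of the euploid partner at 409 (50.0%), and the median ratio was 1.00 with quartiles of 0.817 and 1.18. Across these pairs, which share the peak caller and the sequence under them, Spearman's rho was 0.427. It was 0.897 over the 131 pairs in repeat-masked sequence and 0.211 over the 676 pairs outside repeats, Ss18l1 and Brwd1, so that outside those sites a strong euploid peak was only slightly more often a strong one in Ts65Dn;Brwd1+/-.

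**Figure D2:**
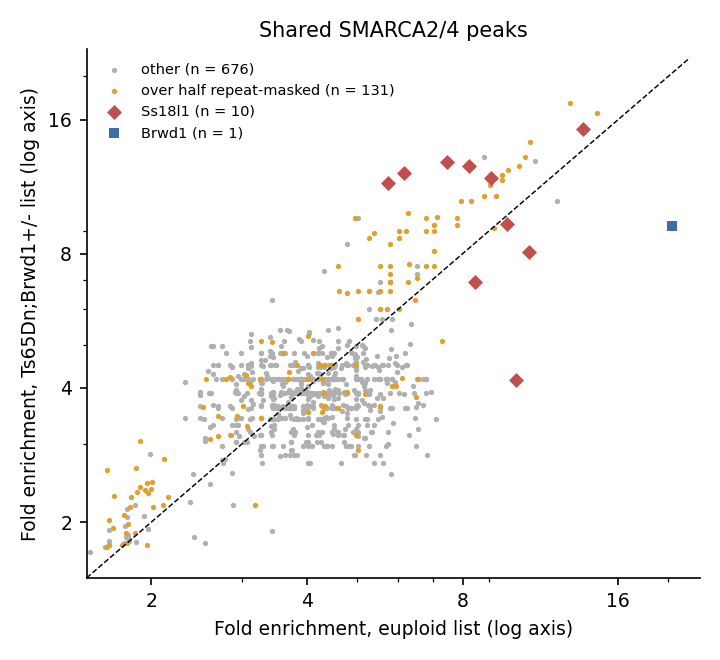
Fold enrichment of the 818 shared Ts65Dn;Brwd1+/- peaks against that of the overlapping euploid peak, both on log axes, with the line of equal values dashed. Repeat-masked sites (n = 131) and the 10 Ss18l1 sites make up most of the points high on both axes, Brwd1 lies below the line, and the remaining 676 sites form a cloud with a Spearman's rho of 0.211.

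The strongest sites of both lists were the same few loci. Of the 25 Ts65Dn;Brwd1+/- peaks with the highest fold enrichment (9.68 to 17.4), 24 were shared with euploid and all 25 were also in the Ts65Dn list. Among them 16 were repeat-masked over more than 50% of their length, 6 were in Ss18l1, 13 were intergenic and 0 overlapped a peak of open chromatin in neuronal nuclei of the same genotype. The exception among the 25 was a 66 bp repeat in Gm26820 (fold enrichment 10.8), which the Ts65Dn list held and the euploid list did not. Among the 47 shared pairs over 6-fold in both lists, 32 were in repeat-masked sequence, 8 in Ss18l1 and 7 in neither. The chr6 site printed above had a fold enrichment of 17.4 in Ts65Dn;Brwd1+/- and 12.9 in euploid. An intergenic site at chr17:4626279-4626583, within the triplicated segment, had 16.5 in Ts65Dn;Brwd1+/- and 14.6 in euploid. Because reads were kept only where they aligned uniquely, values at repeats depend on how well such reads could be placed.

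Ss18l1 carried 10 Ts65Dn;Brwd1+/- peaks and 12 euploid peaks, and all 10 were shared. One lay on each of the first 10 exons of the 11 in its transcript. The last exon held no peak in either list, and the 2 further euploid peaks were in the first intron, within 1 kb of the start. Fold enrichment in Ts65Dn;Brwd1+/- ran from 4.16 at exon 2 to 15.2 at exon 4, with a median of 11.7. In euploid, it was 10.2 at exon 2 and 13.7 at exon 4, with a median over its 12 peaks of 8.33. Exons 3 to 8 were higher in Ts65Dn;Brwd1+/- (11.8, 15.2, 12.8, 12.1, 12.6 and 11.5) than in euploid (9.07, 13.7, 7.45, 6.17, 8.21 and 5.74), and exons 1, 2, 9 and 10 were lower (6.90, 4.16, 9.35 and 8.08 against 8.45, 10.2, 9.76 and 10.8). The Ts65Dn list had the same 10 exons, from 5.89 to 14.5. As the printed sequence shows for exon 7, the peaks reached a short way into the introns. At exons 2 to 10, they began between 6 and 35 bp before the exon (median 27 bp). They ended between 12 bp inside the exon and 38 bp past it (median 23 bp past it). The peak on exon 1 overlapped open chromatin in both genotypes and the other 9 overlapped none in either. Of the remaining gene body peaks of Ts65Dn;Brwd1+/- in protein-coding genes, 20 of 176 shared (11.4%) and 16 of 226 list-specific ones (7.08%) were exonic over more than 50% of their bases. Peaks that end close to exon edges could also come from DNA without introns (a cDNA or plasmid) in the libraries. Which DNA these reads came from was not tested, so the Ss18l1 values are peak values and not necessarily binding at the gene.

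**Figure D3:**
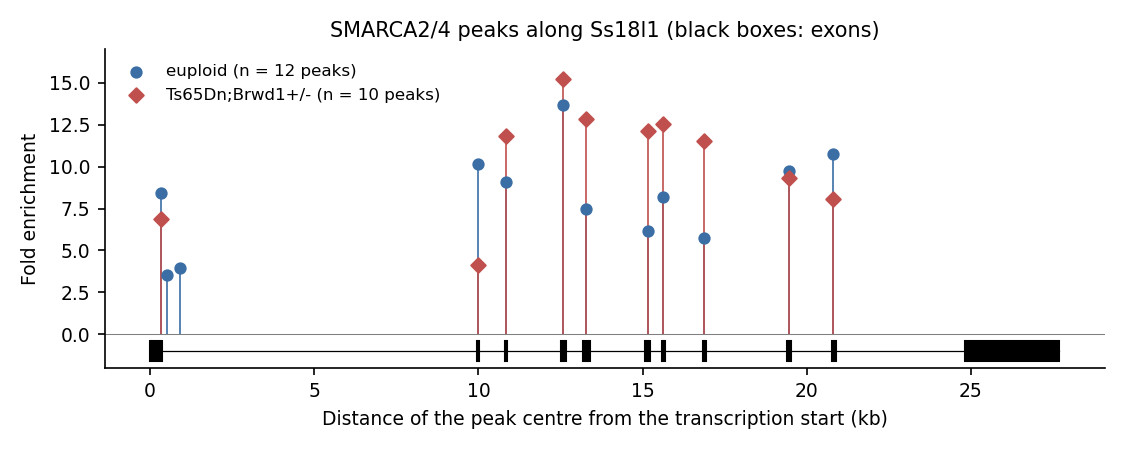
Fold enrichment of each SMARCA2/4 peak in Ss18l1 against the distance of its centre from the transcription start (kb), for euploid (circles, 12 peaks) and Ts65Dn;Brwd1+/- (diamonds, 10 peaks), above the exons of ENSMUST00000041126 to scale. Each Ts65Dn;Brwd1+/- peak stands on 1 of the first 10 exons, and the long last exon has none.

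Brwd1 is the gene whose copy number differs from the rest of the triplicated segment in these animals. Its exon 10 peak had a fold enrichment of 20.4 in euploid (q = 1.28e-74), the highest of that list, 9.21 in Ts65Dn;Brwd1+/- (q = 6.14e-31) and 12.5 in Ts65Dn. The repro5 allele is typed by PCR at this exon, and both the euploid and the Ts65Dn;Brwd1+/- peak fall inside the span of that PCR product, primers included. Whether the reads came from chromatin or from such a product was not tested, so these are peak values and not necessarily SMARCA2/4 binding. About 42.3% of the peak in Ts65Dn;Brwd1+/- was exonic, the remainder lying on the downstream side of the exon, and no open chromatin peak overlapped it in either genotype. A second euploid peak near the start of Brwd1, with a fold enrichment of 3.97, had no partner in Ts65Dn;Brwd1+/-.

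At promoters, shared sites were of moderate strength. By the lowest q-value in Ts65Dn;Brwd1+/-, the proximal promoters (within 250 bp of a start) of protein-coding genes were led by Ybx1, a cold-shock domain protein that binds RNA and DNA, with a fold enrichment of 8.40 in Ts65Dn;Brwd1+/- and 4.77 in euploid. Pfn1, the actin-binding protein profilin, followed with 7.33 and 4.31, and the predicted genes Gm10717 (2.62 and 1.64) and Gm21738 (2.18 and 2.11), which lie in repeat arrays. The next were Gramd1b, a cholesterol transporter (5.57 and 6.36), Camk2b (5.00 and 5.12) and Map7 (4.97 and 2.74). Prcp, a carboxypeptidase (5.12 and 4.11), Trim32 (5.10 and 3.89) and the circadian transcription factor Tef (4.71 and 3.40) completed the 10. Of the 10, 8 had the higher value in Ts65Dn;Brwd1+/-, the list by which they were ranked. Ybx1, Pfn1, Gm21738 and Camk2b were also in the Ts65Dn list.

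Proximal promoter peaks found in euploid only reached fold enrichments of 6.00 to 7.04 among the 9 named here, which are peaks and not genes free of a peak in the other list. The one with the lowest q-value was that of Rin1, a RAS effector of forebrain neurons that activates ABL kinases and the GTPase RAB5, with a fold enrichment of 7.02 (q = 1.14e-12, chr19:5050573-5050653). Rin1 had a further promoter peak that was shared, with 3.14 in Ts65Dn;Brwd1+/- and 4.73 in euploid. Pbld2 (7.04), the chaperonin subunit Cct7 (6.35), the neuronal apoptosis inhibitor Faim2 (6.43), Ankrd10 (6.23), Itm2b, a membrane protein linked to familial dementia (6.59), the Hippo pathway adaptor Mob1b (6.38), the actin-binding protein Coro1a (6.00) and the lipid kinase Pip4k2b (6.53) followed. None of these 9 peaks overlapped a peak of the Ts65Dn list either, and 7 of them overlapped open chromatin of Ts65Dn;Brwd1+/- neuronal nuclei. Those at Pbld2, Cct7, Faim2, Itm2b and Mob1b overlapped open chromatin of euploid nuclei, whose list is smaller (15479 against 30209 peaks).

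Peaks seen in Ts65Dn;Brwd1+/- only were headed by repeats. Among protein-coding genes, taking 1 peak per gene, the 10 with the lowest q-values, not in order, were Gm10717 (fold enrichment 5.14), Gm11168 (3.49), Gm10719 (3.52), Gm10715 (3.21), Gm10718 (3.26) and Gm10720 (3.02), all predicted genes at the start of chromosome 9, and elsewhere E030030I06Rik (3.18), Cpne4 (8.10), Fbxw4, an F-box protein (3.11), and A630010A05Rik (7.50). Of these peaks, those at Cpne4 and A630010A05Rik were also in the Ts65Dn list. Between 3000000 and 3100000 of chromosome 9, the Ts65Dn;Brwd1+/- list held 42 peaks, 2.53% of the list, of which 12 were shared. The euploid list held 13, or 0.0575%, of which 12 were shared. Among peaks not mostly repeat-masked (named after their values were seen), the next Ts65Dn;Brwd1+/- only peaks were at Prrc2c, an RNA-binding protein (6.30), Sfi1, a centrosome protein (2.73), the signalling adaptor Grb2 (5.70), the ferritin heavy chain Fth1 (5.28), Dst (5.40), Dusp11 (5.40) and the retinoic acid receptor Rara (5.20). Those at Grb2 and Fth1 were proximal promoter peaks that overlapped open chromatin of Ts65Dn;Brwd1+/- nuclei. Some of these genes also had shared peaks: Prrc2c (9.30 against 7.04 in euploid), the Fth1 promoter (4.69 against 3.44) and Sfi1.

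The lists placed their peaks somewhat differently along genes. Promoters (within 1 kb of a transcription start, as annotated in the files) held 48.8% (48.1 to 49.5%) of euploid-only peaks, 41.9% (38.6 to 45.3%) of shared peaks in either list and 39.9% (36.7 to 43.3%) of Ts65Dn;Brwd1+/- only peaks, against 6.25% of the genome windows. Proximal promoters alone held 25.2, 17.97 and 18.7% of euploid-only, shared and Ts65Dn;Brwd1+/- only peaks, taking the Ts65Dn;Brwd1+/- peak of the shared ones. Gene bodies held 27.3, 24.9 and 28.8%, and intergenic sequence 12.3, 20.8 and 18.8%. Part of the excess between genes went with repeats: peaks with over 50% of their bases repeat-masked were 3.40% of euploid-only, 16.01% of shared and 23.3% of Ts65Dn;Brwd1+/- only peaks, and 29.0% of genome windows were. Outside such repeats, promoters still held 49.5% of euploid-only, 44.5% of shared and 42.8% of Ts65Dn;Brwd1+/- only peaks, and intergenic sequence 12.1, 17.8 and 14.8%. In the 1662 top euploid peaks, promoters held 52.6% of peaks, against 40.9% of the Ts65Dn;Brwd1+/- list.

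Open chromatin, measured by ATAC-seq of sorted neuronal (NeuN+) hippocampal nuclei and not used to choose the sites, was more frequent at shared than at list-specific peaks. In Ts65Dn;Brwd1+/-, 50.7% (47.3 to 54.2%) of shared and 31.5% (28.5 to 34.7%) of list-specific peaks overlapped an ATAC-seq peak of the same genotype. In euploid, it was 40.5% (37.1 to 43.9%) of shared and 25.9% (25.3 to 26.5%) of euploid-only peaks. Open chromatin also went with rank: of the 1662 euploid peaks with the lowest q-values, 17.3% were shared and 38.3% (36.0 to 40.7%) open. Shared euploid peaks were wider than euploid-only ones too (median 152 against 92.5 bp). The part of rank and width in the difference was not tested. The ATAC-seq lists differ in size, with 15479 euploid and 30209 Ts65Dn;Brwd1+/- peaks. Against the euploid ATAC-seq list alone, 32.9% of shared and 19.1% of list-specific Ts65Dn;Brwd1+/- peaks were open. Among genome windows, 0.442% touched a euploid and 0.869% a Ts65Dn;Brwd1+/- ATAC-seq peak. The SMARCA2/4 lists came from unsorted hippocampal tissue and the ATAC-seq lists from neurons, so a site bound in glia alone need not appear open.

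**Figure D4:**
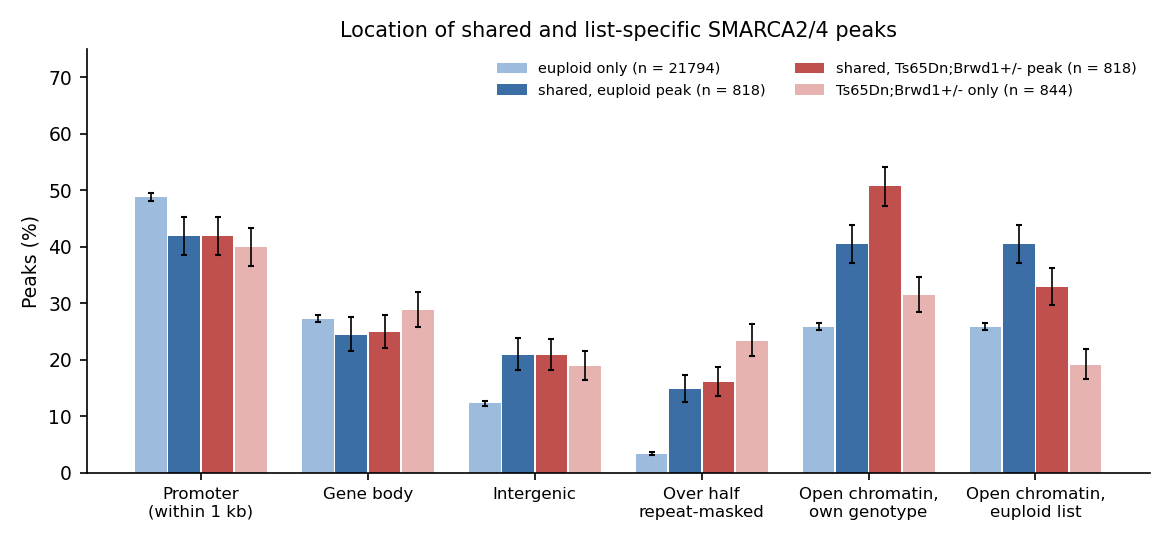
Percent of peaks in each location or feature for euploid-only, shared and Ts65Dn;Brwd1+/- only SMARCA2/4 peaks, with Wilson 95% intervals as error bars. Euploid-only peaks stand out by more promoter (48.8%) and fewer repeat-masked peaks (3.40%), and shared peaks by more overlap with open chromatin (40.5 and 50.7% of their own genotype's list).

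In sequence, windows of 300 bp around the peak centres were richer in G and C than the genome. Median GC content was 55.7% at shared, 52.7% at Ts65Dn;Brwd1+/- only and 54.0% at euploid-only sites, against 41.3% of genome windows, and the median ratio of observed to expected CpG was 0.406, 0.313 and 0.416, against 0.147. The SP/KLF box GGGCGG was in 25.9% of shared, 17.7% of Ts65Dn;Brwd1+/- only and 27.2% of euploid-only windows, in 2.96% of genome windows and in 35.7% of 32851 RefSeq promoter windows of the same length (GRCm38.p6), all on both strands. The AP-1 motif TGANTCA was in 13.4% (11.3 to 15.96%), 8.65% (6.94 to 10.7%) and 11.9% (11.5 to 12.3%) of the 3 kinds of window, against 8.77% of the genome and 7.81% of promoters. Away from starts (over 1 kb) and outside repeats, the AP-1 shares were 17.96, 14.7 and 17.1%, whose intervals overlapped. In the same windows GGGCGG was in 20.9% (17.1 to 25.3%) of shared and 11.4% (8.51 to 15.1%) of Ts65Dn;Brwd1+/- only sites. Among euploid-only sites there it was in 12.2% (11.6 to 12.9%). The CCAAT box was less frequent at shared (22.4%) than at Ts65Dn;Brwd1+/- only (27.8%) and euploid-only (27.8%) windows, and all were below the genome's 40.4% and the 37.4% of promoters. YY1 (AANATGGCG) was in 3.06% of shared and 4.27% of Ts65Dn;Brwd1+/- only windows against 0.945% of euploid-only, 0.374% of genome and 2.38% of promoter windows, but outside repeats in 0.437, 0.464 and 0.950%. The ETS (CCGGAAG) motif was in 3.42, 2.37 and 4.27% of shared, Ts65Dn;Brwd1+/- only and euploid-only windows, NRF1 (GCGCNTGCG) in 0.978, 2.01 and 2.45%, and the CTCF core AGNNGGCGC in 6.11, 5.21 and 7.55%. In promoter windows these were in 8.86, 6.31 and 7.23%, and in genome windows in 0.794, 0.155 and 0.718%. The CRE (TGACGTCA) was in 0.734, 0.237 and 0.858%, against 0.170% of the genome and 1.79% of promoters, and the bHLH box CAGATG in 20.2, 24.3 and 23.01%, against 21.8 and 17.2%. TGANTCA and TGACGTCA were searched separately and share no common match, and all are matches to letters, not measured binding.

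At the level of genes the lists met more than at the level of sites, which the wider rule makes likely, since a peak anywhere in the gene counts. Of 21938 protein-coding genes, 6442 (29.4%) had a euploid peak at a promoter (within 3 kb) or in the gene body, 813 (3.71%) a Ts65Dn;Brwd1+/- peak and 734 (3.35%) both, leaving 79 (0.36%) with a Ts65Dn;Brwd1+/- peak alone. The 734 genes were 90.3% of those with a Ts65Dn;Brwd1+/- peak and 11.4% of those with a euploid peak. Against the 1662 euploid peaks with the lowest q-values, 290 of the 813 genes (35.7%) had a peak in both lists. In 411 of the 734 (56.0%) peaks of the lists overlapped, and in 323 (44.0%) the peaks were at different positions in the gene. Restricted to promoters within 1 kb, 5233 genes (23.9%) had a euploid peak, 456 (2.08%) a Ts65Dn;Brwd1+/- peak, 400 (1.82%) both and 56 (0.255%) the latter alone. Genes rich in euploid peaks had a Ts65Dn;Brwd1+/- peak more often: 79 of 15496 without a euploid peak (0.510%), 135 of 2976 with 1 (4.54%), 126 of 1439 with 2 (8.76%), 171 of 1149 with 3 to 4 (14.9%) and 302 of 878 with 5 or more (34.4%). Long genes can hold more peaks in either list, and the part of gene length in this gradient was not tested.

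**Figure D5:**
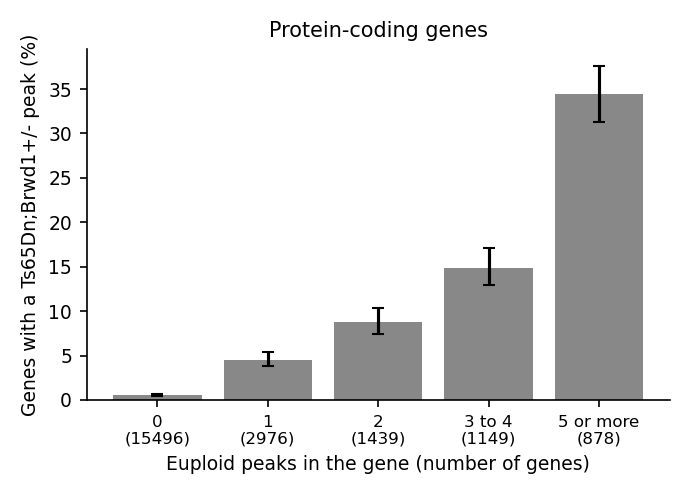
Percent of protein-coding genes with a Ts65Dn;Brwd1+/- peak at a promoter or in the gene body, by the number of euploid peaks in the gene, with Wilson 95% intervals and the number of genes in brackets. The share runs from 0.510% of genes without a euploid peak to 34.4% of genes with 5 or more.

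Genes with several Ts65Dn;Brwd1+/- peaks were singled out after their counts were seen. Sfi1 held 27 peaks, of which 2 were shared, with a median fold enrichment of 1.99. Gm21738 held 16 and Gm10717 14, all in repeat-masked sequence. After Ss18l1 came Tcf4, a bHLH transcription factor, with 8 peaks (4 shared) against 85 in euploid, the most of any gene there. Nfix, a nuclear factor I gene, had 6 (6 shared) against 65, and Thra, the thyroid hormone receptor alpha, 6 (5 shared) against 15. Tnrc18 had 6 (6 shared) against 19 and Zbtb16, a zinc finger repressor, 5 (3 shared) against 32. By contrast Kalrn with 45, Myt1l with 34 and Celf2 with 33 euploid peaks had no shared peak.

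Most lists of genes by role held peaks more often than all protein-coding genes in both genotypes, housekeeping genes included. Of 31 genes for synapses and long-term potentiation, 27 (87.1%) had a euploid and 12 (38.7%) a Ts65Dn;Brwd1+/- peak, 5 with an overlapping pair, against 29.4 and 3.71% of all protein-coding genes. Among those with the lowest q-values in Ts65Dn;Brwd1+/- were Nrxn3, a presynaptic adhesion molecule (9.68, in a repeat, against 7.13 in euploid), Camk2b, and the postsynaptic scaffolds Shank1 (4.50 against 3.48 at the overlapping euploid peak) and Shank2 (4.20 against 3.87), each by its peak with the lowest q-value in Ts65Dn;Brwd1+/-. Camk2a with 22, Grin2b with 21 and Grin2a with 20 euploid peaks had none in Ts65Dn;Brwd1+/-. Of 24 activity-regulated genes, 20 had a euploid and 5 (20.8%) a Ts65Dn;Brwd1+/- peak: Btg2, an antiproliferative gene (5.01, against 6.33 in euploid), the AP-1 gene Fosl2 (4.33, in a repeat, against 3.69), Egr1 (4.50, against 5.22), Arc (3.66, against 4.46) and Nr4a2 (3.28, against 4.10). The values are of overlapping peaks at Btg2, Fosl2 and Arc and of peaks at different positions at Egr1 and Nr4a2. In Ts65Dn;Brwd1+/- the peaks at Arc (q = 0.0896) and Nr4a2 (q = 0.757) did not have a q-value under 0.05.

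Of 28 genes for BAF subunits, 19 (67.9%) had a euploid and 5 (17.9%) a Ts65Dn;Brwd1+/- peak, and only Ss18l1 had an overlapping pair. For this list and the next 3, the comparison is with all protein-coding genes, of which 29.4% had a euploid and 3.71% a Ts65Dn;Brwd1+/- peak. The other 4 were Smarcd1 (4.20), Arid1b (3.69), Smarcd3 (3.52) and Bcl11b (3.90), of which Smarcd1 alone had a q-value under 0.05. Dpf3, Bcl11a, Arid1a and Smarca2 had euploid peaks only (5.28, 4.75, 4.77 and 4.46). Of 20 other readers and writers of chromatin, 14 had a euploid peak and 1 (5%, near the share over all genes) a Ts65Dn;Brwd1+/- peak, the deacetylase Hdac1 (3.69, q = 0.125), which had none in euploid. Of 16 glial and neuronal transcription factors, 14 had a euploid and 7 (43.8%) a Ts65Dn;Brwd1+/- peak, led by Zeb2 and Nfia (5.10 each, against 5.13 and 4.78 in euploid, at other positions). Of 20 housekeeping genes, 14 had a euploid and 3 (15.0%) a Ts65Dn;Brwd1+/- peak, among them Actb (3.299) and Gapdh (3.25), both with q = 0.757.

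Among markers of cell types, the euploid list held promoter peaks most often at those of excitatory neurons, then of astrocytes. Promoters within 1 kb held a euploid peak at 10 of 12 excitatory neuron markers, 4 of 12 astrocyte, 2 of 12 oligodendrocyte lineage, 1 of 12 interneuron and 0 of 12 each of microglial, endothelial and non-brain tissue markers, against 23.9% of all genes. With gene bodies included, euploid peaks were at 10 excitatory neuron, 6 astrocyte (50%), 2 oligodendrocyte lineage, 1 interneuron, 1 endothelial and 0 microglial or non-brain markers, against 29.4% of all genes. In Ts65Dn;Brwd1+/- a promoter peak was found at 1 marker in all, the astrocytic glutamate transporter gene Slc1a2 (4.20, in a repeat, against 5.28 in euploid, at different positions), where 2.08% of all genes had one. With promoters up to 3 kb and gene bodies included, the neuronal genes Rbfox3 (4.20) and Slc17a7 (3.82), the oligodendrocyte gene Mbp (2.90, q = 0.50) and Cspg4 (4.35, no euploid peak) joined it, against 3.71% of all genes.

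The triplicated segment (chromosome 16 from Mrpl39 to the end, chromosome 17 from the start to Pde10a, 22.5 Mb in all) held more Ts65Dn;Brwd1+/- peaks for its length than the rest of the genome. There were 51 peaks, or 2.27 per Mb, against 0.596 per Mb elsewhere, a ratio of 3.81. In the euploid list the segment held 250 peaks, 11.1 against 8.27 per Mb, a ratio of 1.34, and in the Ts65Dn list 26 peaks, a ratio of 2.55. Without repeat-masked peaks the ratios were 3.81, 1.34 and 2.57. Of the segment's 180 protein-coding genes, 25 (13.9%, 9.59 to 19.7%) had a Ts65Dn;Brwd1+/- peak against 3.62% elsewhere, and 56 (31.1%) a euploid peak against 29.4% elsewhere. Shared with euploid were 23 of the 51 (45.1%, 32.3 to 58.6%), a share whose interval held the 49.3% found outside the segment. Median fold enrichment of the 51 was 3.65. Beyond Brwd1, the listed genes of the segment with the lowest q-values were Tiam1, a RAC activator (4.79), the protease gene Adamts1 (4.10), the potassium channel gene Kcnj6 (4.10) and Pigp, a gene of GPI anchor synthesis (4.12). At their overlapping peaks, Ts65Dn;Brwd1+/- had 4.31 against 4.20 in euploid and 3.19 against 4.97 at Tiam1, 3.43 against 4.47 at Adamts1, 4.10 against 4.30 at Kcnj6 and 4.12 against 5.93 at Pigp. Dyrk1a and App had euploid peaks only (5.03 and 4.97). The extra copy adds reads to IP and input alike, and more binding and more DNA in the segment cannot be told apart here.

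Shared sites were the ones most often found in the third genotype too. The Ts65Dn list, which was not used to choose the sites, overlapped 198 of 818 shared Ts65Dn;Brwd1+/- peaks (24.2%, 21.4 to 27.3%) and 57 of the 844 list-specific ones (6.75%, 5.25 to 8.65%). On the euploid side it overlapped 225 of 818 shared peaks (27.5%) and 362 of 21794 euploid-only peaks (1.66%). Of the 106 Ts65Dn;Brwd1+/- peaks over 6-fold, 91 were in the Ts65Dn list and 81 were repeat-masked. The shares outside repeats and Ss18l1 were not computed, and the part of repeats, strength and width was not tested.

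Genes with promoter sites were expressed genes. In euploid forebrain neuron cultures of embryonic origin (3 libraries), the median level per kb of exon was 11.7 CPM (counts scaled to equal library totals) per kb (10.5 to 14.3) for the 400 genes with a promoter peak in both lists, 8.66 (8.36 to 9.04) for the 4833 with a euploid promoter peak only, 5.60 (3.98 to 9.12) for the 56 with a Ts65Dn;Brwd1+/- promoter peak only, and 0.175 (0.151 to 0.197) for genes without a peak in either list. A level of at least 1 CPM was reached by 379 (94.8%), 4651 (96.2%), 51 (91.1%) and 7084 (46.3%) of them. The cultures differ from adult hippocampus in age and region, so these levels place the genes and do not measure expression where binding was measured.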

How the data were processed

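SMARCA2/4 ChIP-seq reads (4 IP and 4 input libraries per genotype) had been aligned by the authors to mm10 with HISAT2, limited to unique alignments, cleared of duplicates and passed to MACS with input as control and a window of 300 bp. The deposited lists give each peak a fold enrichment (a linear ratio) and a q-value, with a region from diffReps. The stated filter (q-value under 0.05 and fold change over 1.2) does not describe the deposited SMARCA2/4 lists: 87.8% of euploid and 55.4% of Ts65Dn;Brwd1+/- peaks on placed chromosomes have a q-value under 0.05. ATAC-seq lists (3 libraries per genotype) have the same columns. How replicates were pooled, and library depth, are not given in the sources used here. Deposited culture RNA-seq files hold raw read counts per gene from the authors, with between 20663650 and 23207352 counts per euploid library. Lines that name no gene held 39.0 to 39.9% of counts and were left out.

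Overlaps, shares, Wilson intervals, order-statistic intervals of medians and CPM were computed with Python 3.11.15, pandas 2.3.3 and scipy 1.17.1, and sequences were read with pysam 0.24.0. Overlap counting was tested on simulated lists. Of 11652 transcripts named in the SMARCA2/4 lists, 94.0% had the same position in GENCODE vM21, so GRCm38 sequence was used. A peak was called repeat-masked when over 50% of its bases are lower case there. Members and gene lists were chosen with earlier results of these data known. Named promoter genes are the 10 with the lowest q-value per kind, 1 peak per gene, and list genes at most 5 by q-value. Some genes and sequences that this rule gives are not reported here. No test between genotypes was made. Alternatives were other overlaps, ranks, filters and annotations. Leaving out repeats, Ss18l1 and Brwd1 was chosen after seeing the data.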

Additional observations from a re-analysis of the deposited data

Results flagged for a closer look

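Peaks on unplaced and mitochondrial sequences, which the comparison left out, were more frequent in Ts65Dn;Brwd1+/-. They made up 211 of 1873 peaks on all sequences (11.3%, 9.91 to 12.8%), against 55 of 22667 in euploid (0.243%) and 37 of 1290 in Ts65Dn (2.87%). In Ts65Dn;Brwd1+/- most lay on the unplaced contig JH584304.1, with 149 peaks (7.96% of the list, 6.81 to 9.27%), against 27 in euploid (0.119%). Of the 149, 22 overlapped a euploid peak, and their fold enrichment had a median of 2.33 (range 1.67 to 11.8), against 1.91 in euploid. What sets these peaks was not tested.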

How the results depend on the processing

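No paired analysis was possible because each list pools its replicates. Of 83 alternative values, 46 stayed within the counting interval of the value reported (counts of genes within 1.5 times) and 37 did not. Requiring 50% of the shorter peak gave shared shares of 40.7 (Ts65Dn;Brwd1+/-) and 2.96% (euploid), a gap of 1000 bp 76.7 and 10.0%, the authors' stated filter 52.0 and 2.49%, a q-value under 0.001 44.3 and 2.20%, and all sequences 45.9% of Ts65Dn;Brwd1+/-. Without repeats, 3.10% of euploid peaks were shared, and 3.05% without Ss18l1 and Brwd1 as well. Among equal numbers of top peaks, 15.4% were shared by fold enrichment, 21.4% for 500 peaks, 15.7% without repeats and 15.0% also without Ss18l1 and Brwd1.

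The promoter share of euploid-only peaks was 49.5% under the stated filter, without repeats, and also without Ss18l1 and Brwd1, 49.9% by annotated starts and 56.3% in equal top lists, where it was 35.1% of shared peaks on either side. Under the stated filter, median fold enrichment was 4.26 (shared) and 4.20 (specific) in Ts65Dn;Brwd1+/- and 4.20 (shared) and 3.79 (specific) in euploid. Genes with a peak in both lists numbered 167 of 224 with a Ts65Dn;Brwd1+/- peak (74.6%) for proximal promoters, 407 of 449 (90.6%) under the stated filter and 290 of 813 (35.7%) in equal top lists. Open chromatin of the euploid list held 32.9 and 19.1% of shared and specific Ts65Dn;Brwd1+/- peaks. Without repeats, its own list held 55.4 and 35.8% and, for euploid-only peaks, 26.5%. Without Ss18l1 and Brwd1 as well, these were 56.2, 35.8 and 26.6%. Shared peaks were open more often than list-specific ones in every setting run. Leaving out each culture library in turn gave median CPM of 63.6 to 66.3, 46.9 to 47.7, 29.0 to 30 and 0.475 to 0.493 for genes with a promoter peak in both lists, euploid only, Ts65Dn;Brwd1+/- only and neither. Causes of these moves, other than fewer peaks under a stricter filter, were not tested. With 1 pooled list per genotype and unknown depth, a site missing from a list was not detected there, which does not show that it is unbound.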

Other observations

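The X chromosome, of which these male mice have 1 copy, held 33 of the euploid peaks (0.146%) and 13 of the Ts65Dn;Brwd1+/- peaks (0.782%). Of the 13, 9 were shared with euploid (69.2%, 42.4 to 87.3%), against 49.2% over the whole list. The strongest of them, at chrX:114858816-114858904 near Gm14897, had a fold enrichment of 12.9 in Ts65Dn;Brwd1+/- and 11.1 in euploid and was also in the Ts65Dn list. Chromosome 11 held 200 Ts65Dn;Brwd1+/- peaks, 12.03% of that list, of which 86 were shared, against 9.30% of the euploid list.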
